A study of Mus musculus with 8 samples.

Results

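Calcrl, Epha3, Btla, Rasgrp3, Igfbp7 and Crisp3 are 6 mouse genes outside the homeobox family whose signal was lower with a deletion mutant of the leukaemia fusion NUP98-HOXA9 than with the full-length fusion. They were picked by symbol for that difference, out of 19938 symbols on 21789 probe sets that carry a single gene name, and each is read by 1 probe set. The values that chose them are the differences between each mutant and the full-length fusion, so those differences are given below as a description, without a test. The choice set no numeric limit, so there are no members just inside or outside one.

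RNA came from C57BL/6 mouse cells in 4 groups of 2 arrays, numbered 1 and 2 in the labels. The control group carried an empty vector. The second group carried full-length NUP98-HOXA9, a leukaemia protein that couples the N-terminal FG (phenylalanine-glycine) repeats of the nuclear pore protein NUP98 to the HOXA9 homeodomain. The last 2 groups carried the fusion with a deletion, named delFG1 and delFG2. The 3 fusion groups thus share a form of NUP98-HOXA9. The sources used here do not give the residues deleted, the cell type, the vector's promoter or any pooling of cultures. Separate cultures behind the 2 arrays of a group are not stated either, so every p-value rests on a spread between arrays that could be technical. The groups are compared for genes whose signal differs with the deletions. The amount of each fusion form in the cells is not known here, so the deletion and a lower amount cannot be told apart.

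The 6 genes act at the cell surface, just inside it or outside the cell. Calcrl encodes a G protein-coupled receptor that, with a RAMP protein, binds adrenomedullin or calcitonin gene-related peptide. Epha3 encodes a receptor tyrosine kinase for ephrins on neighbouring cells, and Btla an inhibitory receptor of lymphocytes and dendritic cells that binds the TNF receptor family member HVEM. Rasgrp3 encodes an exchange factor, recruited by diacylglycerol, that loads Ras and Rap proteins with GTP. Igfbp7 and Crisp3 encode secreted proteins: the first is related to the binding proteins of insulin-like growth factors, and the second is a cysteine-rich protein of the CAP superfamily found in exocrine secretions and, in human, in neutrophil granules. Crisp3 is thus a signalling gene only in a loose sense.

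Since the fusion binds DNA through a homeodomain, the bases before the start site are shown for the member whose window held a HOX-type motif and for those with the richest and poorest GC content. RefSeq start sites of build GRCm38.p6 were found for all 6 genes, in 7 windows (2 for Rasgrp3). In the 250 bases before each start, both strands were searched for TTTATGA (posterior HOX proteins), TGACAG (MEIS) and TGATTNA (PBX with HOX). The Btla window, chr16:45224087-45224336 on the plus strand, held 1 match to TGATTNA, written in capitals, which begins 103 bases before the start. It overlaps no other match. The GC content was 74% in the Igfbp7 window, chr5:77408046-77408295 on the minus strand, and 35.6% in the Crisp3 window, chr17:40242289-40242538 on the minus strand, which hold no match.
Btla: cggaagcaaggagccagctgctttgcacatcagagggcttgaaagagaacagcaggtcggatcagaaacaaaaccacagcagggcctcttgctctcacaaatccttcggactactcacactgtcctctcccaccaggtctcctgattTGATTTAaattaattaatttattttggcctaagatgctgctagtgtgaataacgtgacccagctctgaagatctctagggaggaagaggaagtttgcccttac
Igfbp7: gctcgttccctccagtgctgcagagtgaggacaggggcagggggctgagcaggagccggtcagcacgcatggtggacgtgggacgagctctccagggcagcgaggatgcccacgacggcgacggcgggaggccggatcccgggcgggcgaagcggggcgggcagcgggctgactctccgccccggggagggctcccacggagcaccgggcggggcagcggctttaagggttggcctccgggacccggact
Crisp3: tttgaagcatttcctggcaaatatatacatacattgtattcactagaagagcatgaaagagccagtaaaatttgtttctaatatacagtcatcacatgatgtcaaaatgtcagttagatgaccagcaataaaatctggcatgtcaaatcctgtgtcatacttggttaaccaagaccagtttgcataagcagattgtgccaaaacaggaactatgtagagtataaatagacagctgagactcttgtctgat

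None of the 3 motifs was found in the windows of Calcrl, Rasgrp3 and Epha3 either. Of 32851 mouse windows of this length, 9.11% held TGATTNA, 15.9% TGACAG and 3.35% TTTATGA. A match in 1 window of 7 is a description of letters and not of binding.

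All values below are log2(intensity + 1), and differences are on that scale, which understates changes of dim probe sets. Array medians lay between 80.7 and 83.2 in intensity, and the lowest intensity in the table was 18.3. Differences were tested by limma over all probe sets in a fit of the 8 arrays, and again with the array number as a block, since arrays of the same number deviated together in every pair of groups. The first fit called few genes and the second many, so both adjusted p-values are given, in that order. A lower signal from fewer cells of a type and from less RNA per cell cannot be told apart in such samples.

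With the full-length fusion, Epha3 rose over the empty vector in both fits, and Btla, Crisp3, Igfbp7 and Rasgrp3 rose in the fit with the block, with differences of 1.32-fold for Rasgrp3, 1.67-fold for Igfbp7 and 2.28-fold for Btla. No fold is given for Crisp3, whose empty vector signal was close to the lowest of the table. Calcrl had another pattern: its full-length and empty vector levels were close, and it fell below the empty vector with both mutants in the fit with the block. Between full-length fusion and empty vector all 6 differences were positive, from 0.18 to 1.21 with a median of 0.73, where the median over all tested probe sets was 0.02. Epha3 passed without the block, where 0.101% of all probe sets were called higher. With it Btla, Crisp3, Epha3, Igfbp7 and Rasgrp3 passed, where 2.18% were called higher. With delFG1 against the empty vector 0 members passed without the block (1 at an unadjusted p under 0.05), where 0.129% of all probe sets did. With it 1 was higher and 1 lower, Btla and Calcrl, beside 1.94% called higher and 4.18% called lower. With delFG2 against the empty vector 0 passed without the block (2 unadjusted), beside 0.00459%, and with it 1, Calcrl, was lower, beside 0.399%. The full-length arrays of this comparison also took part in choosing the genes, so its p-values are not independent of the choice, and the same holds for the mutant arrays further below.

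**Figure D1:**
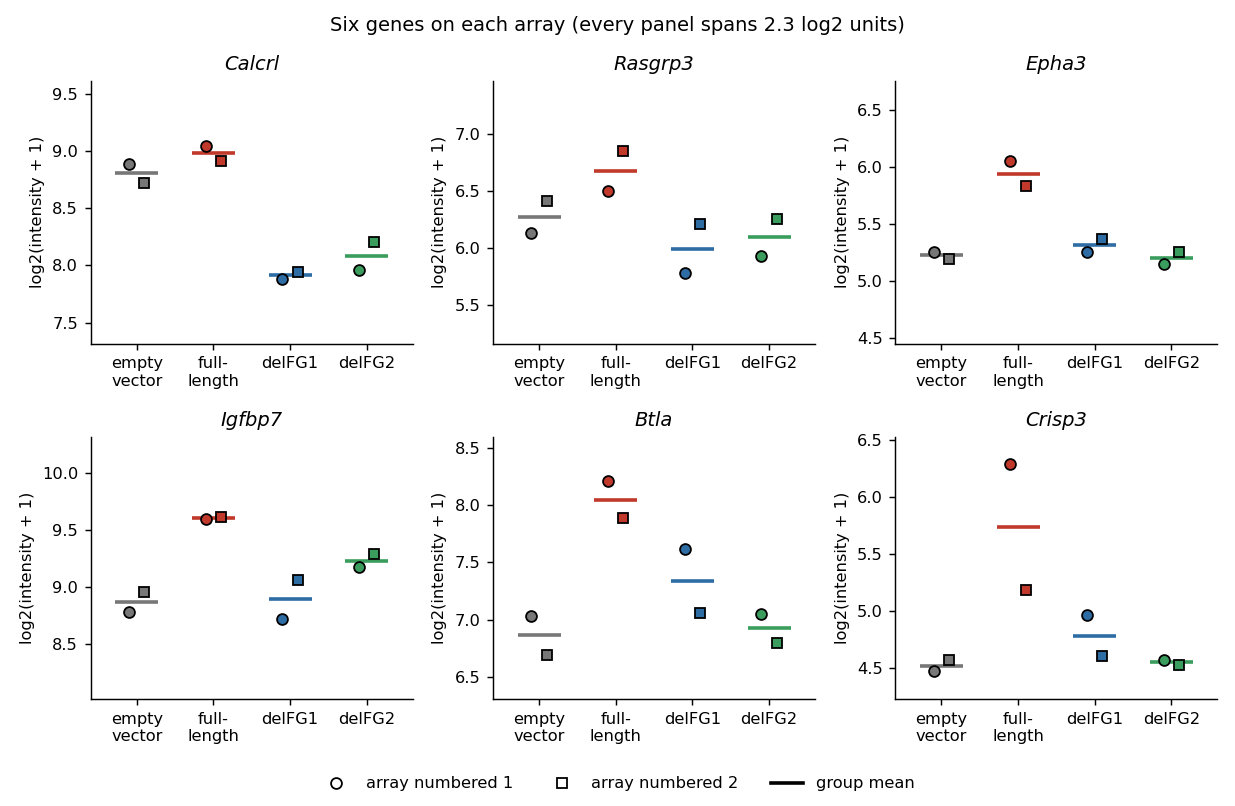
Signal of the 6 genes as log2(intensity + 1) on each of the 8 arrays, with circles for arrays numbered 1, squares for arrays numbered 2 and a line for the group mean. The full-length arrays are the highest in every panel, and only for Calcrl do both empty vector arrays lie above all 4 mutant arrays by more than 0.5.

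Among the receptors, Calcrl read 8.89 and 8.72 on the empty vector arrays numbered 1 and 2, 9.05 and 8.92 with the full-length fusion, 7.88 and 7.95 with delFG1, and 7.96 and 8.21 with delFG2. The 4 mutant arrays thus lay apart from the 4 others, while full-length and empty vector arrays were only 0.02 apart at their nearest. The group means were 8.81 ± 0.12 for the empty vector, 8.98 ± 0.10 for the full-length fusion, 7.91 ± 0.05 for delFG1 and 8.08 ± 0.17 for delFG2 (SD, n = 2). In this order of levels, full-length and empty vector differed by 0.18 (95% interval -0.11 to 0.47), with adjusted p of 0.742 and 0.483.

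Against the empty vector, Calcrl was lower by 0.89 with delFG1, a 1.86-fold difference with adjusted p of 0.0576 and, with the block, 0.000926. With delFG2 it was lower by 0.72, or 1.65-fold, with adjusted p of 0.766 and, with the block, 0.0307. Calcrl was the 1 member to fall below the empty vector with the block, in each mutant. The blocked call for delFG1 held when any single array was left out, with adjusted p between 0.000468 and 0.0153. The delFG2 call held in 4 of 8 such fits and was lost without the delFG2 array numbered 1 (adjusted p of 0.437), the empty vector array numbered 1 or either full-length array. The mutants themselves did not differ detectably for Calcrl (0.17, interval -0.12 to 0.46).

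Epha3 read 5.26 and 5.20 with the empty vector, 6.05 and 5.83 with the full-length fusion, 5.26 and 5.37 with delFG1, and 5.15 and 5.26 with delFG2. Only the full-length arrays stood out, and the other 6 lay within a narrow band. The mean rose from 5.23 ± 0.04 to 5.94 ± 0.16 (SD, n = 2) with the full-length fusion, by 0.72 or 1.64-fold, with adjusted p of 0.0244 and 0.000917. Against the empty vector the mutants differed by 0.09 (delFG1, interval -0.12 to 0.29) and -0.02 (delFG2, interval -0.22 to 0.18). The call without the block was lost when either empty vector array or the full-length array numbered 1 was left out (adjusted p of 0.168, 0.203 and 0.171), and held in all 8 fits with the block. Epha3 is one of 2 dim members, with a mean log2 value under 6 and intensities of 34.6 to 65.3.

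Btla read 7.03 and 6.69 with the empty vector, 8.22 and 7.89 with the full-length fusion, 7.62 and 7.06 with delFG1, and 7.05 and 6.80 with delFG2. In each group the array numbered 2 was the lower one, by 0.25 to 0.56, and within each number the order was the same, full-length first and delFG1 second. The full-length mean of 8.05 ± 0.23 exceeded the empty vector mean of 6.86 ± 0.24 (SD, n = 2) by 1.19, a 2.28-fold difference with adjusted p of 0.105 and, with the block, 0.000157. The 2 numbered pairs gave 1.18 and 1.19. The blocked call held without any single array, with adjusted p no higher than 0.00867.

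Measured from the empty vector mean, 40.3% of the Btla difference was left with delFG1 (49.8% and 31.0% in the pairs numbered 1 and 2) and 5.11% with delFG2 (1.40% and 8.78%). These shares use the mutant and full-length values that chose the gene, so they are a description. With delFG1 Btla exceeded the empty vector by 0.48, with adjusted p of 0.524 and, with the block, 0.0261, and with delFG2 by 0.06 (interval -0.42 to 0.54). Without the block the delFG1 difference was 0.20 or 0.76 when the delFG1 array numbered 1 or 2 was left out. The delFG1 call held in 3 of 8 blocked fits without 1 array. It was lost without either delFG1 array, either full-length array or the empty vector array numbered 1, with an adjusted p of up to 0.458. The difference between the mutants, -0.42 for delFG2 minus delFG1, did not pass, with adjusted p of 1 and, with the block, 0.19.

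Inside the cell, Rasgrp3 read 6.13 and 6.41 with the empty vector, 6.50 and 6.85 with the full-length fusion, 5.78 and 6.21 with delFG1, and 5.93 and 6.26 with delFG2. Here the arrays numbered 2 were the higher ones in all 4 groups, by 0.28 to 0.43, so the delFG1 and delFG2 arrays overlapped those of the empty vector. The means were 6.27 ± 0.20, 6.67 ± 0.25, 5.99 ± 0.31 and 6.09 ± 0.23 (SD, n = 2). The full-length fusion exceeded the empty vector by 0.40, or 1.32-fold, with adjusted p of 0.552 and, with the block, 0.0282. That blocked call was lost in 4 of 8 fits, those without an empty vector or full-length array, with an adjusted p of up to 0.165. With delFG1 Rasgrp3 differed from the empty vector by -0.28 (blocked adjusted p of 0.126) and with delFG2 by -0.18 (0.541), so the order of the lower 3 groups was not resolved.

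Of the secreted proteins, Igfbp7 read 8.79 and 8.95 with the empty vector, 9.60 and 9.62 with the full-length fusion, 8.72 and 9.06 with delFG1, and 9.18 and 9.29 with delFG2. The delFG2 arrays lay between those of the full-length fusion and the rest, without overlap. The full-length mean of 9.61 ± 0.01 exceeded the empty vector mean of 8.87 ± 0.12 (SD, n = 2) by 0.74, or 1.67-fold, with adjusted p of 0.108 and, with the block, 0.001. The blocked call held in all 8 fits without 1 array, with adjusted p no higher than 0.0401.

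Of the 4 genes whose blocked call held whichever array was left out, Igfbp7 alone had a larger share of its difference left with delFG2 than with delFG1 in the mean. The share was 49.2% in the mean, and 48.0% and 50.7% in the arrays numbered 1 and 2, against 3.22% with delFG1 (-7.59% and 16.5%). These shares use values that also chose the gene, so they are a description for Igfbp7 as well. Its level with delFG2 was 0.36 above the empty vector (interval 0.06 to 0.67), with adjusted p of 1 and, with the block, 0.135. The mutants differed by 0.34 (interval 0.04 to 0.64), with adjusted p of 1 and, with the block, 0.225. Neither difference passed once all probe sets were counted.

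Crisp3 read 4.47 and 4.58 with the empty vector, 6.29 and 5.19 with the full-length fusion, 4.97 and 4.61 with delFG1, and 4.58 and 4.53 with delFG2. In intensity, 5 of the 8 arrays lay between 21.2 and 23.4, close to the lowest value of the table, and the full-length arrays read 77.2 and 35.5. The full-length mean of 5.74 ± 0.78 exceeded the empty vector mean of 4.53 ± 0.07 (SD, n = 2) by 1.21, with adjusted p of 0.229 and, with the block, 0.0054. The array numbered 1 carried most of it, with a difference of 1.81 in the pair numbered 1 and of 0.61 in the other pair. Without the full-length array numbered 1 it was 0.67, or 0.72 with the block, and without the array numbered 2 it was 1.76, which passed without the block (adjusted p of 0.00694). With a pseudocount of 16 it was 0.87. The blocked call held in all 8 fits without 1 array, with adjusted p of up to 0.0332. Mutant levels differed from the empty vector by 0.26 (delFG1) and 0.03 (delFG2), with adjusted p of 0.832 and 1. Crisp1, a close relative of Crisp3 in the mouse, is not named by a probe set of its own in the annotation used here, and whether the Crisp3 probe set also reads it is not known.

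**Figure D2:**
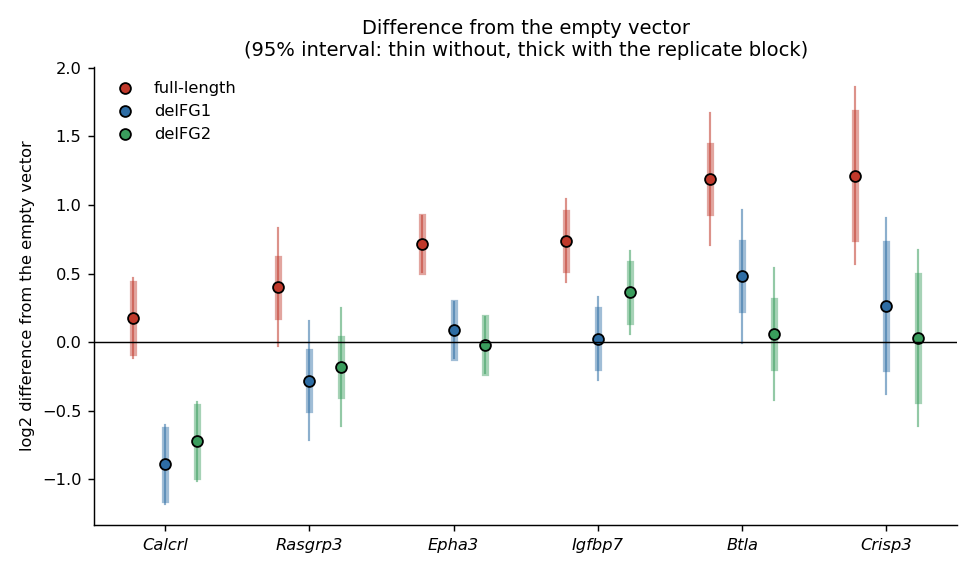
Log2 difference of the full-length fusion, delFG1 and delFG2 from the empty vector for each gene, with 95% intervals from limma (thin without, thick with the replicate block, unadjusted for the number of genes). The full-length points lie above 0 for all 6 genes, and the mutant points of Calcrl lie at -0.89 and -0.72.

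The differences that chose the genes, mutant minus full-length fusion, were negative in all 12 cases. With delFG1 they ran from -1.07 (Calcrl) to -0.63 (Epha3) with a median of -0.71, and with delFG2 from -1.19 (Crisp3) to -0.37 (Igfbp7) with a median of -0.82, where the medians over all probe sets were 0.00 and -0.01. In both comparisons the arrays of the 2 groups did not overlap for 6 of 6 genes. Over all probe sets 25.7% (delFG1) and 25.9% (delFG2) did not overlap, 12.4% and 14.1% with the mutant lower. By limma, 0.0551% and 0.17% of all probe sets were called lower with the block, and 0.00918% and 0.0275% were called in either direction without it. Since the genes were chosen on these differences, nothing is read from the counts. Both comparisons also use the same 2 full-length arrays, so they are not separate evidence.

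Within the numbered pairs, the difference was steadiest for Rasgrp3 with delFG2 (-0.57 and -0.59) and for Btla with delFG2 (-1.17 and -1.09). It was least steady for Crisp3, at -1.32 and -0.58 with delFG1 and at -1.71 and -0.66 with delFG2, where the pair numbered 1 gave the larger size in each. Epha3 gave -0.79 and -0.47 with delFG1 and -0.90 and -0.57 with delFG2, again larger in the pair numbered 1.

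**Figure D3:**
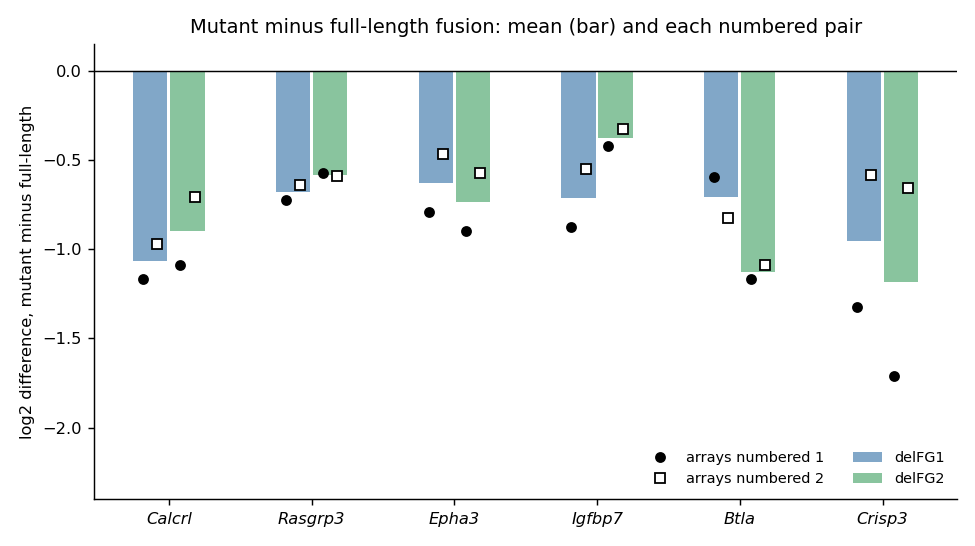
Log2 difference of each mutant from the full-length fusion for the 6 genes, as the mean (bar) and as the difference within the arrays numbered 1 (circle) and 2 (square). All bars and points lie below 0, and the points of Crisp3 lie farthest apart.

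Set against each other, the mutants split the genes evenly. Calcrl, Rasgrp3 and Igfbp7 were higher with delFG2 than with delFG1, by 0.17, 0.10 and 0.34, and Epha3, Btla and Crisp3 were lower, by 0.11, 0.42 and 0.23 (as differences of -0.11, -0.42 and -0.23). None of the 6 passed by limma in either fit, with 1 at an unadjusted p under 0.05 without the block and 2 with it, and 0% of all probe sets were called without the block and 0.537% with it. The arrays of the 2 mutants did not overlap for 5 of the 6 genes, the exception being Rasgrp3, and for 27% of all probe sets. For no single member was a difference between the deletions resolved.

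The other genes around each member were counted from lists drawn up for the pathways, without the members. Of 102 such genes in 6 lists, 0 passed without the block between full-length fusion and empty vector (10 at an unadjusted p under 0.05, which 9.54% of all probe sets reached). With the block 0 were higher and 7 lower, or 6.86%, where 4.43% of all probe sets were called lower and 6.61% in either direction. With delFG1 against the empty vector 0 passed without the block (10 unadjusted, beside 9.61% of all probe sets), and with it 2 were higher and 8 lower, or 9.8% beside 6.12% of all probe sets. With delFG2 0 passed without the block (7 unadjusted, beside 4.43% of all probe sets), and with it 1 was lower, or 0.98% beside 0.505%. Between either mutant and the full-length fusion 0 passed by limma in either fit, with 3 (delFG1) and 1 (delFG2) at an unadjusted p under 0.05 without the block, which 2.07% and 2.76% of all probe sets reached. The shares of all probe sets called with the block were 0.078% and 0.468%.

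Around Calcrl, 10 of the other 11 genes of the calcitonin and adrenomedullin system were measured and 0 passed in any comparison in either fit, with 1 at an unadjusted p under 0.05 between full-length fusion and empty vector. Their median difference was 0.08 with the full-length fusion and 0.06 with delFG1 against the empty vector, beside 0.02 over all probe sets in each. Ramp3, one of the partners that set the ligand preference of the receptor, had the largest difference with the full-length fusion, 0.54 with adjusted p of 0.33 and, with the block, 0.0572. With delFG1 and delFG2 Ramp3 lay 0.38 and 0.39 above the empty vector. Ramp1 differed by 0.19 and Ramp2 by 0.09 with the full-length fusion, and the ligand gene Adm by 0.06. With delFG1, where Calcrl fell below the empty vector in the fit with the block, Ramp1, Ramp2 and Ramp3 differed by 0.22, 0.17 and 0.38. None of these passed. The RAMP differences were positive with the full-length fusion too, where Calcrl was not lower.

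Around Epha3, 20 other Eph receptors and ephrins had a median difference of 0.02 with the full-length fusion, and 0 passed in either fit (1 at an unadjusted p under 0.05). With delFG1, Epha7, a receptor of the same class, exceeded its empty vector level by 0.69, with adjusted p of 0.182 and, with the block, 0.00669. Its mean was 5.81 with the empty vector, 6.27 with the full-length fusion, 6.51 with delFG1 and 6.01 with delFG2. Efna5, an ephrin ligand that binds Epha3, differed by 0.04 with the full-length fusion.

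Around Btla, 21 ligands, related inhibitory receptors and phosphatases had a median difference of -0.10 with the full-length fusion, and 0 passed without the block (5 at an unadjusted p under 0.05). Btla itself rose, on full-length arrays that also took part in its choice. Beside 4.43% of all probe sets called lower with the block, 5 of the 21 fell. They were Havcr2 (TIM-3) by 0.71, Cd200r1, the receptor of CD200, by 0.71, Cd200 by 0.55, Cd274, which encodes PD-L1, by 0.50, and Vsir (VISTA) by 0.29, with blocked adjusted p of 0.0016, 0.00444, 0.00831, 0.00558 and 0.0327. With delFG1 the same first 4 and Ltb (lymphotoxin beta) fell with the block, Havcr2 by 0.91, Cd274 by 0.69 and Ltb by 0.52. With delFG2 Havcr2 fell by 0.74 (blocked adjusted p of 0.0157). Of all probe sets 4.18% (delFG1) and 0.399% (delFG2) were called lower with the block. Tnfrsf14, which encodes HVEM, the ligand of Btla, differed by -0.08, -0.01 and 0.05 with the full-length fusion, delFG1 and delFG2.

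Around Rasgrp3, 23 other genes of the Ras cycle were measured, with a median of -0.09 with the full-length fusion and 0 passing without the block (1 unadjusted). With the block Rapgef2, an exchange factor of Rap proteins, fell by 0.37 (adjusted p of 0.0354) with the full-length fusion. With delFG1 Rasgrp4, the family member known from mast cells, fell by 0.54 and Rras, a Ras-related GTPase, by 0.43, with blocked adjusted p of 0.0122 and 0.0261. Rasgrp1 and Rasgrp2, the exchange factors of T cells and platelets, differed from the empty vector by 0.19 each with the full-length fusion. Against the full-length fusion Rasgrp1 was at -0.31 with delFG1 and -0.20 with delFG2, neither passing (adjusted p of 0.862 and 0.669 with the block).

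In the IGF system, 17 other binding proteins, ligands and receptors had a median of 0.05 with the full-length fusion and 0 passed in either fit (2 at an unadjusted p under 0.05). Igf2r, the receptor that clears IGF2, exceeded its empty vector level by 1.26 with delFG1, with adjusted p of 0.119 and, with the block, 0.00369. Its mean was 7.59 with the empty vector, 7.63 with the full-length fusion, 8.85 with delFG1 and 8.19 with delFG2. Igf1r, the signalling receptor, differed by -0.12 with the full-length fusion. In the CAP superfamily 11 relatives of Crisp3 had a median of -0.02 with the full-length fusion, and 0 passed without the block (0 unadjusted). Crispld2 passed with the block, lower by 0.50 with the full-length fusion and by 0.59 with delFG1 (adjusted p of 0.0346 and 0.0154).

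**Figure D4:**
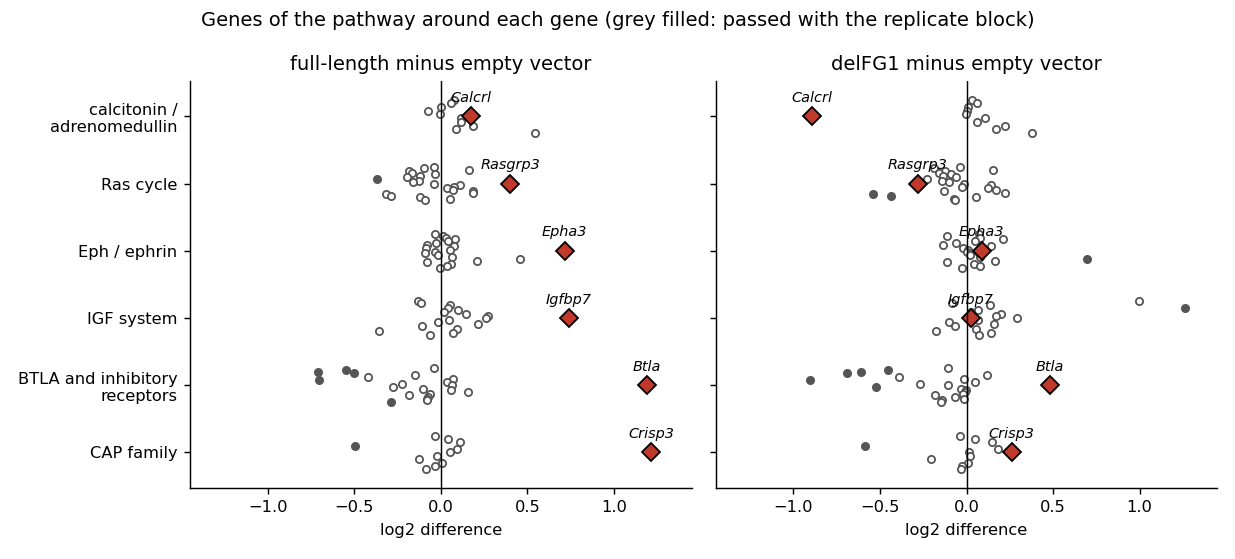
Log2 differences from the empty vector with the full-length fusion (left) and delFG1 (right) for the genes of the list around each member, with the member as a red diamond and genes that passed with the replicate block filled. With the full-length fusion every filled list gene lies below 0 and all 6 members lie above it. The full-length arrays also took part in choosing the members. Of all probe sets 4.43% were called lower and 2.18% higher there with the block.

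Over the 8 arrays some genes recurred among those most like the members, Hoxb5 and Eya1 for 3 members each. Likeness was measured as Pearson's r among 922 named probe sets whose group means spanned at least 0.5, as a description that shares the arrays and their groups. The members were chosen as lower with the mutants than with the full-length fusion. Likeness to other genes high with the full-length fusion thus follows in part from the choice, and nothing is read from the recurrence. Epha3 was most like Pbx3, Hoxb5 and Eya1, with r of 0.988, 0.955 and 0.951, and Btla like Hoxa9, Gcnt4 and Mef2c, with 0.960, 0.958 and 0.957. Pbx3, Hoxb5, Hoxa9 and Mef2c encode transcription factors, Eya1 a coactivator and Gcnt4 a glycosyltransferase. The Hoxa9 means were 7.45 with the empty vector, 9.42 with the full-length fusion, 8.16 with delFG1 and 7.82 with delFG2. Whether the Hoxa9 probe set also reads the HOXA9 part of the fusion is not known. Igfbp7 was most like the protease inhibitor gene Slpi (0.977), ahead of Hoxb5 (0.879) and Hoxb4 (0.836). By Pearson's r Calcrl and Rasgrp3 had looser matches. These were Neto2 (0.840), Eya1 (0.760) and Rasgrp3 (0.743) for Calcrl, and Eya1 (0.822), Hoxb5 (0.777) and Pirb (0.761) for Rasgrp3. Spearman's rank correlation gave another order for Eya1, 0.905 with Calcrl and 0.881 with Rasgrp3 but 0.548 with Epha3. Among the members r ran from 0.346 (Rasgrp3 and Btla) to 0.906 (Epha3 and Crisp3).

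Crisp3 was most like Hoxc5, Ccr7 and Tnfrsf9, with r of 0.994, 0.968 and 0.954 and Spearman correlations of 0.929, 0.905 and 0.667. Ccr7 encodes a chemokine receptor of T cells and mature dendritic cells and Tnfrsf9 the costimulatory receptor 4-1BB. Ccr7 read 8.58 on the full-length array numbered 1 and 7.10 on that numbered 2, and 6.58 to 7.07 on the other 6. All 10 dendritic cell markers were measured, and their summed intensity was 6202 and 3934 on the full-length arrays, 3664 and 3877 with the empty vector, 4341 and 3222 with delFG1, and 3751 and 3390 with delFG2. Between the full-length arrays, Cd74, H2-Aa, H2-Ab1 and Itgax, of which the first 3 serve MHC class II presentation, differed by 2242.5 in summed intensity and the other 6 markers by 25.2. These 4 were singled out after their values were seen. The other 6 were dim, at intensities of 25.5 to 78.2 on the full-length arrays, so they count little in the sums. Among them Xcr1 read 46.7 and 35.0 on the arrays numbered 1 and 2, and Clec9a 25.5 and 28.5. One of the 10, the MHC class II gene H2-Ab1, was higher with the full-length fusion by 0.74, with adjusted p of 0.427 and, with the block, 0.0353. The defining marker Zbtb46 differed by -0.01 and read 6.23 and 6.24 on the full-length arrays. The part of these cells in the Crisp3 values was not tested.

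**Figure D5:**
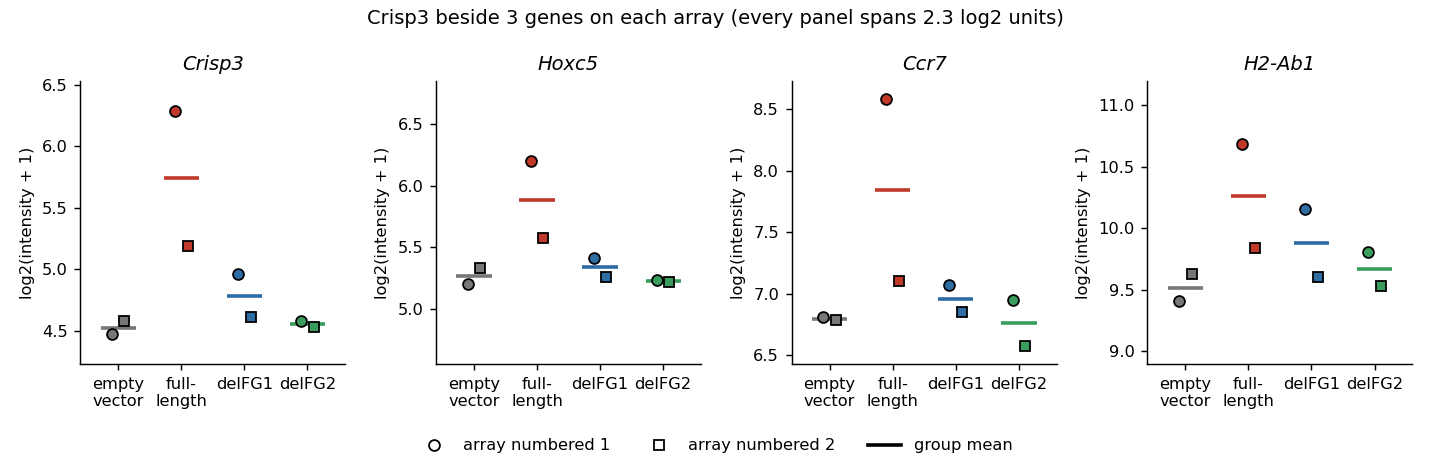
Crisp3, Hoxc5, Ccr7 and H2-Ab1 as log2(intensity + 1) on each array, with circles for arrays numbered 1, squares for arrays numbered 2 and lines for group means. In every panel the full-length array numbered 1 is the highest, and for Crisp3 it reads 6.29 beside 5.19 on the array numbered 2.

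Btla is also expressed by lymphocytes, and Calcrl, Epha3 and Igfbp7 by endothelial or stromal cells, so markers of those cells are given beside them. Of 10 B lymphoid markers 9 were measured, with summed intensities of 917 to 1000 with the empty vector, 984 to 1102 with the full-length fusion, 1073 to 1088 with delFG1 and 1001 to 1014 with delFG2. With the full-length fusion 0 passed without the block. With it Blnk and Cd22, named after their values were seen, fell by 0.43 and 0.62 (adjusted p of 0.0215 and 0.00387). The median difference of the 9 was 0.05, beside 0.02 over all probe sets. Of all probe sets 4.43% were called lower and 2.18% higher with the block. Sums of 9 T and NK markers lay between 357 and 379 on all 8 arrays, with 368 and 372 for the empty vector and 373 and 379 for the full-length fusion, and Cd3e differed by 0.06. The 10 endothelial markers summed to 1857 to 2227 over all arrays, with Cdh5 at a difference of 0.12 with the full-length fusion. With the block Emcn and Vwf, named after their values were seen, rose by 0.32 and fell by 0.77 there, beside the same shares of all probe sets. The 9 fibroblast and stroma markers summed to 595 to 652, with Col1a1 at -0.05. The endothelial sum was lower with the full-length fusion in both numbered pairs, at 2082 against 2227 and 1912 against 2055. It was also below the empty vector with delFG1 (2163 and 1889) and delFG2 (2184.5 and 1857). With the full-length fusion the stroma sum was higher in the pair numbered 1, at 652 against 602, and lower in the other, at 595 against 609. With delFG1 the stroma sum was 602 and 623, and with delFG2 610 and 625. The part of endothelial and stromal cells in the values of Calcrl, Epha3 and Igfbp7 was not tested.

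Of the blood cell markers, the stem and progenitor gene Cd34 exceeded its empty vector level by 0.86 with the full-length fusion (adjusted p of 0.335 and, with the block, 0.000189). From there it was lower by 0.55 with delFG2 (adjusted p of 1 and, with the block, 0.0139). It was 1 of 8 measured markers of that list to pass in each of these comparisons. With the block 2.18% of all probe sets were called higher in the first and 0.17% lower in the second. With delFG1 Cd34 rose by 0.61 over the empty vector and Gata2 fell, both passing with the block. There 1.94% of all probe sets were called higher and 4.18% lower. Cd34 and Gata2 were named after their values were seen. Kit, the defining marker of the list, differed by -0.14 with the full-length fusion. The 8 markers ran from -0.39 to 0.86 there, with a median of 0.12. Summed intensities of that list were 2990 to 3732 with the empty vector, 3656 to 4312 with the full-length fusion, 3291 to 3650 with delFG1 and 3362 to 3570 with delFG2. The neutrophil, monocyte and mast cell lists were compared with the empty vector in the fit with the block. With the full-length fusion 5 of 10, 4 of 7 and 4 of 8 of their genes fell, and 1 of each list rose. Of all probe sets 4.43% were called lower and 2.18% higher. With delFG1 4, 5 and 5 fell and 2, 1 and 0 rose, beside 4.18% of all probe sets called lower and 1.94% higher. With delFG2 0, 2 and 0 fell, beside 0.399% called lower, and 0 rose in each list. The 3 comparisons share the empty vector arrays. Without the block 0 of these passed with the full-length fusion (4, 5 and 6 at an unadjusted p under 0.05). The monocyte list summed to 10718 and 13818 with the empty vector, 8676 and 9742 with the full-length fusion, 7904 and 9336 with delFG1, and 8803 and 11289 with delFG2. Their defining genes Mpo, Csf1r and Cpa3 differed by 0.06, -0.51 and -0.50. How far cell makeup bears on the 6 genes was not tested.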

How the data were processed

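Total RNA of 8 mouse samples was labelled with a whole-transcript terminal kit for GeneChip arrays, per the labels' protocols. The authors deposited a table of linear intensity values for 28853 probe sets. Its background correction, summary and normalization are not stated in any source used here, and the values show arrays of nearly equal distribution. No detection calls came with it, so dim signals stayed in. Precision is limited by having 2 arrays a group.

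Of these probe sets 21789 had 1 symbol in the supplied platform annotation and were tested, 1621 had several and 5443 none. All Entrez numbers of the members were found in the RefSeq table of GRCm38.p6, used for names. Genes with several probe sets are shown by the one of highest mean, and each member has 1.

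Values were taken as log2(intensity + 1), with a pseudocount of 1. Limma 3.58.1 in R 4.3.3 (lmFit, eBayes with trend) fitted 4 group means over 8 arrays, with 4 residual and 4.62 prior degrees of freedom, two-sided, with Benjamini-Hochberg adjustment per comparison (6 in all) over every tested probe set and a threshold of 0.05. A second fit had the replicate number as a block (3 and 7.78 degrees of freedom). The labels give the numbers, and the data bear the pairing out: after each group's mean was taken off, arrays sharing a number correlated over probe sets with r of 0.401 to 0.640 in the 6 group pairs. The script was tested on simulated data.

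The members, pathway lists and marker lists were chosen with earlier results of these data known. Named by rule were the members, pathway list genes that passed in either fit (at most 6 per list), fixed binding partners and defining markers. The 3 most alike genes of each member were also named by rule. Promoter windows are RefSeq's. Alternatives were the block, median centring, quantile normalization, a pseudocount of 16, no trend, a mean log2 value of at least 6, the 2 compared groups alone, and leaving out each array. Leaving out each array from the fit with the block was added after seeing the data.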

Additional observations from a re-analysis of the deposited data

How the results depend on the processing

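With 2 arrays a group, the replicate block decided most calls. With it the probe sets called were 1440, 1333 and 110 for the full-length fusion, delFG1 and delFG2 against the empty vector (27, 28 and 1 without), 117 for delFG2 against delFG1 (0 without), and 17 and 102 for delFG1 and delFG2 against the full-length fusion (2 and 6 without). Members called were 5, 2 and 1 against the empty vector (1, 0 and 0 without). Without an intensity trend 5, 0 and 3 probe sets were called for delFG1 and delFG2 against the empty vector and delFG2 against the full-length fusion, and with only the compared groups 2 for delFG2 against the empty vector and 1 for delFG1 against the full-length fusion. Members called for the full-length fusion fell to 0 in both of these, where Epha3 had adjusted p of 0.0805 and 0.0708, and to 0 among probe sets with a mean log2 value of at least 6, where Epha3 was not tested. Without 1 array, probe sets called ranged from 7 to 36, 0 to 34 and 0 to 2 against the empty vector, 0 to 4 between the mutants, and 1 to 4 and 1 to 7 against the full-length fusion, and members called for the full-length fusion from 0 to 2. With the block as well they ranged from 385 to 2378, 487 to 2272, 2 to 1065, 1 to 313, 5 to 44 and 17 to 324, and members called from 4 to 5, 1 to 2 and 0 to 1. Apart from the fits with both the block and 1 array left out, 330 of 352 tested member differences kept direction and call, and 174 of 176 untested ones, against the full-length fusion, moved by less than the replicate spread. Direction turned only without 1 array and only in differences of at most 0.26 in size. Without the block Igfbp7 with delFG1 against the empty vector turned to -0.06 and -0.15 (highest 0.19). With delFG2 against the empty vector Epha3 turned to 0.01 and 0.03, Crisp3 to -0.02 and Btla to -0.11 and -0.07 (highest 0.23). Rasgrp3 between the mutants turned to -0.12 and -0.07 (highest 0.32). With the block Crisp3 with delFG1 turned to -0.039 (highest 0.56) and Igfbp7 to -0.10, and with delFG2 Epha3 turned to 0.01 and 0.060, Crisp3 to -0.27 and -0.17 (highest 0.33) and Btla to -0.02. A pseudocount of 16 moved Epha3 against the full-length fusion to -0.48 (delFG1) and -0.56 (delFG2), and Crisp3, whose replicate spread is larger, to -0.70 and -0.85 there. The causes were not tested.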
